A study of Mus musculus with 6 samples.

Results

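The apolipoprotein genes Apoa1, Apoa2, Apoa4, Apoa5, Apob, Apoc1, Apoc2, Apoc3, Apoe and Apom were examined in the liver of neonatal male mice. All probes of the bead array carrying one of these 10 gene symbols were taken, which gave 11 of 25697 probes, for 9 of the 10 genes. Apoc1 and Apoc2 had 2 probes each, and Apob was not analysed here. Total RNA of 6 livers at postnatal day 6 was hybridized to Illumina MouseRef-8 BeadChips, 3 from hSRY-ON and 3 from hSRY-OFF pups. All mice were on the FVB/N background, and the transgenic pups came from 1 line, Signalox-hSRY, with a single transgene copy at the H11 locus. In hSRY-ON pups, Cre made in the oocyte of a Ddx4-Cre mother had removed a DsRed2 cassette, so that the CAG promoter, which acts in most cell types, drove human SRY together with EGFP. The hSRY-ON pups used had not inherited Ddx4-Cre itself. In hSRY-OFF animals hSRY was not activated. The methods use this name for Signalox-hSRY mice without recombination, while other passages of the study describe control littermates as non-transgenic or carrying Ddx4-Cre alone, so the exact control genotype was not settled here.

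Apolipoproteins are the protein parts of lipoproteins, the particles that carry cholesterol and triglyceride in blood. The liver secretes very low density lipoprotein, built around apolipoprotein B, and most of the apolipoproteins of high density lipoprotein. Several members of the family influence how fast lipase empties the particles and which receptors take them up. Apoa4 is in adult mammals best known as a gene of the intestine, but the mouse liver transcribes it as well.

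In hSRY-ON livers these genes did not move as a block. Apoa4 rose about 22.2-fold, while Apoc3 and Apoa5, its neighbours on chromosome 9, rose 2.55-fold and 2.21-fold. Apom fell 2.42-fold, and 1 of the 2 probes of each of Apoc2 and Apoc1 fell 1.60-fold and 1.36-fold. For Apoa1, Apoa2 and Apoe no difference passed the threshold, and all of these probes lay near the top of the array's range. In counts, 3 of the 11 probes were called higher, 3 lower and 5 neither, and all 11 were detected on all 6 arrays. A call means an adjusted p under 0.05 (limma, Benjamini-Hochberg over all 10734 probes tested), and folds come from background-corrected, quantile-normalized log2 intensities. The Apoa5 call lay just inside this threshold (adjusted p = 0.04999) and was lost in 8 of 18 alternative analyses. That of the Apoc1 probe was lost in 7 of 18. The share of member probes called was 54.5%. Among all tested probes 33.1% were called, 15.8% higher and 17.3% lower. The groups did not overlap at 3 member probes in the higher and 5 in the lower direction, while the same was true of 50% of all tested probes. The median log2 difference was -0.10 over the member probes and 0.02 over all tested probes.

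Apoa1, Apoc3, Apoa4 and Apoa5 lie in this order within 43292 bases of chromosome 9 (chr9:46228630-46271921, GRCm38.p6). The promoters of Apoa1, Apoa4 and Apoa5 are shown because these close neighbours had log2 differences as far apart as -0.12, 4.47 and 1.15. Each sequence runs from 250 bases before to 50 bases after the annotated start, on the plus strand, as given by RefSeq for GRCm38.p6. The first belongs to Apoa1, whose level was not called different (chr9:46228380-46228679), the second to Apoa4 (chr9:46240594-46240893), and the third to Apoa5 (chr9:46268358-46268657).
Apoa1 promoter: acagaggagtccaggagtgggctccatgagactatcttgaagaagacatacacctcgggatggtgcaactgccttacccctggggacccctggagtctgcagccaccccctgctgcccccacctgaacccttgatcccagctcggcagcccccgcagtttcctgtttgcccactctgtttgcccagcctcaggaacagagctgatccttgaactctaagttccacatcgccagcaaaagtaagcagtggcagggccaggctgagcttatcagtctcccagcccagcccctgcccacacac
Apoa4 promoter: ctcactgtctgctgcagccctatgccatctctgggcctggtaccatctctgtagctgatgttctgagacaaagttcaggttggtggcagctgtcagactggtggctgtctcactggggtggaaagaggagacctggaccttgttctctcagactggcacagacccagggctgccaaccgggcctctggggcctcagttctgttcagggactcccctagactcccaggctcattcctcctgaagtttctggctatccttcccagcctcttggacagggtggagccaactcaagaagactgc
Apoa5 promoter: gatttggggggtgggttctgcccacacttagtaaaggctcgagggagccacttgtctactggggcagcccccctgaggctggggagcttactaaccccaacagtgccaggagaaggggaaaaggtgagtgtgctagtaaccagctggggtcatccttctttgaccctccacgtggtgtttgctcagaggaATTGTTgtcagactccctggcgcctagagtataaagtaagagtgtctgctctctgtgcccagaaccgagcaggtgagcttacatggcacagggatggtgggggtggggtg
Capitals mark the letters AACAAT, which SRY and its relatives are known to bind, here read on the opposite strand and beginning 60 bases before the Apoa5 start. RefSeq windows were found for 8 of the 10 genes, all but Apoc1 and Apoc3, and numbered 12 in all. On either strand AACAAT was present in 2 of them, which are overlapping windows of Apoa5, and in 10.7% of the 32851 mouse promoters of the same length. The nuclear receptor letters AGGTCA were found in 1 window each of Apoa2 and Apoc2, and in 16.3% of all promoters. TGACGT, the core of the cAMP response element, was found in 0 of the 12 windows and in 7.51% of all promoters. The printed Apoa1 and Apoa4 windows held none of the 3 motifs. These matches describe letters only, since binding was not measured.

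Structural proteins of high density lipoprotein come first. Apoa4 encodes an apolipoprotein of chylomicrons and high density lipoprotein that is tied to triglyceride export. Its probe (ILMN_2834123) had deposited intensities of 646, 753 and 517 in hSRY-OFF replicates 1 to 3. In hSRY-ON replicates 1 to 3 they were 10469, 15656 and 8018. Every hSRY-ON liver lay far above every control, and the lowest hSRY-ON intensity was 10.7 times the highest hSRY-OFF intensity before any correction. On the log2 scale the level went from 8.98 ± 0.12 to 13.45 ± 0.39 (SD, n = 3 each). The fitted difference was 4.47 ± 0.20 (SE, 95% confidence interval 4.0 to 4.95; adjusted p = 3.99e-05), a fold of 22.2 with an interval of 15.96 to 30.8.

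Apoa1 encodes the main protein of high density lipoprotein, which accepts cholesterol from cells and activates cholesterol esterification. The deposited intensities of ILMN_2623393 were 35422, 35955 and 34072 in hSRY-OFF and 31211, 34744 and 32114 in hSRY-ON livers. After normalization the hSRY-ON values all lay below the controls, but by little. The log2 difference of -0.12 ± 0.12 (SE, interval -0.39 to 0.16) was not called (adjusted p = 0.468). Apoa2, the second protein of these particles, read 35279, 35513 and 33440 in controls and 32136, 33438 and 28373 in hSRY-ON livers (ILMN_1247156). Its groups did not overlap either, and its difference of -0.14 ± 0.11 (interval -0.38 to 0.11) was not called (adjusted p = 0.346). Quantile normalization gave the 3 hSRY-ON arrays the same Apoa2 value, 14.94, because the probe had the same rank on each.

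Apom encodes a carrier of sphingosine-1-phosphate on high density lipoprotein. Its probe (ILMN_2916782) read 8344, 10359 and 7770 in hSRY-OFF and 2948, 3803 and 3462 in hSRY-ON livers. All 3 hSRY-ON livers lay well below the controls. On the log2 scale Apom fell by 1.27 ± 0.19 (SE, interval of the difference -1.72 to -0.83; adjusted p = 0.00296). The fall was called in all 18 alternative analyses, with differences from -1.42 to -1.08.

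**Figure D1:**
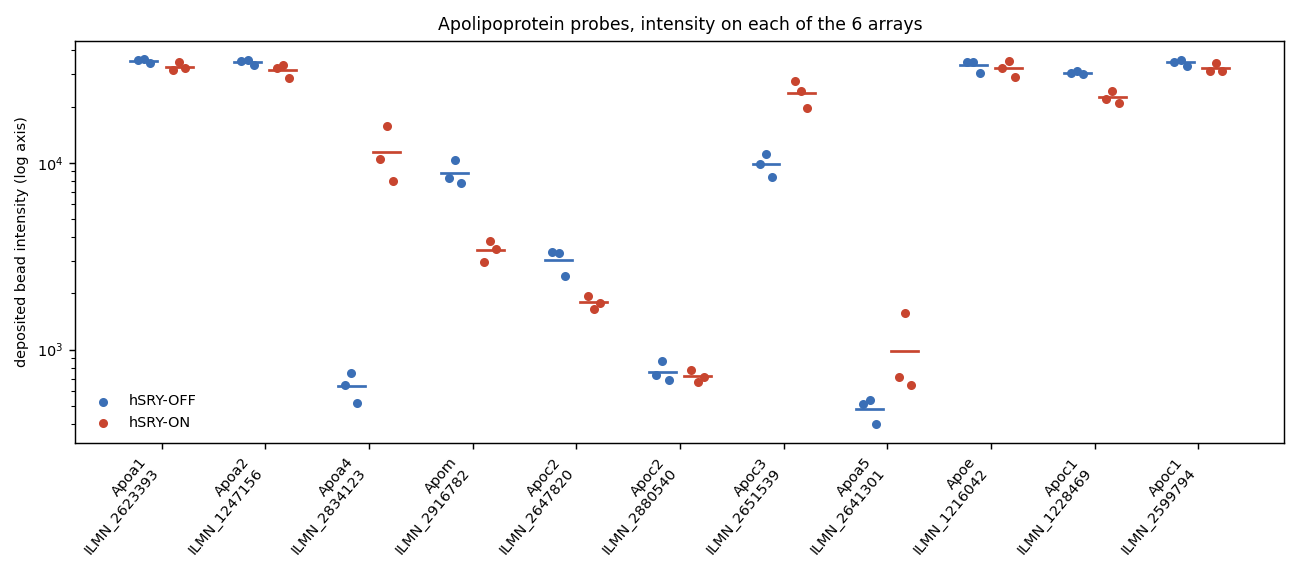
Deposited bead intensity (log axis) of the 11 apolipoprotein probes on each of the 6 arrays, with points for single arrays in replicate order and horizontal lines for group means. Apoa4 shows the widest gap, from 517 to 753 in hSRY-OFF and from 8018 to 15656 in hSRY-ON livers, while Apoa1, Apoa2, Apoe and the Apoc1 probes sit near the top of the scale.

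The regulators of triglyceride clearance changed in different directions. Apoc3 encodes an inhibitor of lipoprotein lipase and of the uptake of remnant particles. Its probe (ILMN_2651539) read 9802, 11178 and 8412 in hSRY-OFF and 27453, 24250 and 19646 in hSRY-ON livers. The groups were separated by a wide margin. Apoc3 was 1.35 ± 0.13 log2 units higher in hSRY-ON livers (SE, interval 1.05 to 1.65; adjusted p = 0.000492) and was called higher in all 18 alternatives.

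Apoa5 encodes an activator of triglyceride hydrolysis, present in plasma in very small amounts. The intensities of ILMN_2641301 were 512, 537 and 399 in hSRY-OFF and 716, 1579 and 647 in hSRY-ON livers. The groups did not overlap, and hSRY-ON replicate 2 stood well above the other 2 hSRY-ON livers. The hSRY-OFF group had a log2 level of 8.46 ± 0.05 and the hSRY-ON group one of 9.61 ± 0.83 (SD, n = 3 each), a difference of 1.15 ± 0.37 (SE, interval 0.28 to 2.01). The adjusted p of 0.04999 lay just inside the threshold, and the call was lost in 8 of 18 alternatives, where the adjusted p reached 0.126. Without hSRY-ON replicate 2 the difference was 0.67 (adjusted p = 0.0131), and with any single control array left out it was not called (adjusted p from 0.115 to 0.126).

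Apoc2 encodes the cofactor that lipoprotein lipase needs. Its brighter probe (ILMN_2647820) read 3333, 3307 and 2473 in hSRY-OFF and 1946, 1645 and 1783 in hSRY-ON livers, without overlap. This probe fell by 0.68 ± 0.12 on the log2 scale (SE, interval of the difference -0.96 to -0.39; adjusted p = 0.00625). The dimmer probe (ILMN_2880540) read 729, 872 and 690 against 781, 673 and 715, and here the groups overlapped. Its difference was -0.05 ± 0.14 (interval -0.39 to 0.28; adjusted p = 0.813). The intervals of these 2 probes nearly meet at -0.39, so the direction for Apoc2 rests on 1 probe. Averaged into 1 value, the probes gave -0.36 (adjusted p = 0.0542).

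Apoe and Apoc1 belong to remnant particles. Apoe encodes the ligand with which remnants bind hepatic receptors. Its probe (ILMN_1216042) read 34590, 34778 and 30404 in hSRY-OFF and 32156, 34968 and 28873 in hSRY-ON livers. The groups overlapped, and the log2 difference was below 0.01 in size with an interval of -0.26 to 0.25 (adjusted p = 0.981). The third array of each group was the dimmest for this probe before normalization. Apoc1 encodes a small protein that slows receptor uptake. One of its probes (ILMN_1228469) read 30298, 31024 and 29863 in controls and 22059, 24268 and 20983 in hSRY-ON livers. All hSRY-ON values were below the controls, and this probe fell by 0.45 ± 0.12 on the log2 scale (SE; adjusted p = 0.0238). The other (ILMN_2599794) read 34728, 35699 and 33005 against 30964, 34142 and 30929, with a difference of -0.10 ± 0.12 (interval -0.37 to 0.17; adjusted p = 0.549). The call of the first probe was lost in 7 of 18 alternatives. These were leaving out any hSRY-OFF array or hSRY-ON replicate 1 (adjusted p from 0.0663 to 0.0796), averaging the 2 probes (0.0967), omitting both correction and normalization (0.068) and using the replicate number as a block (0.0508).

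**Figure D2:**
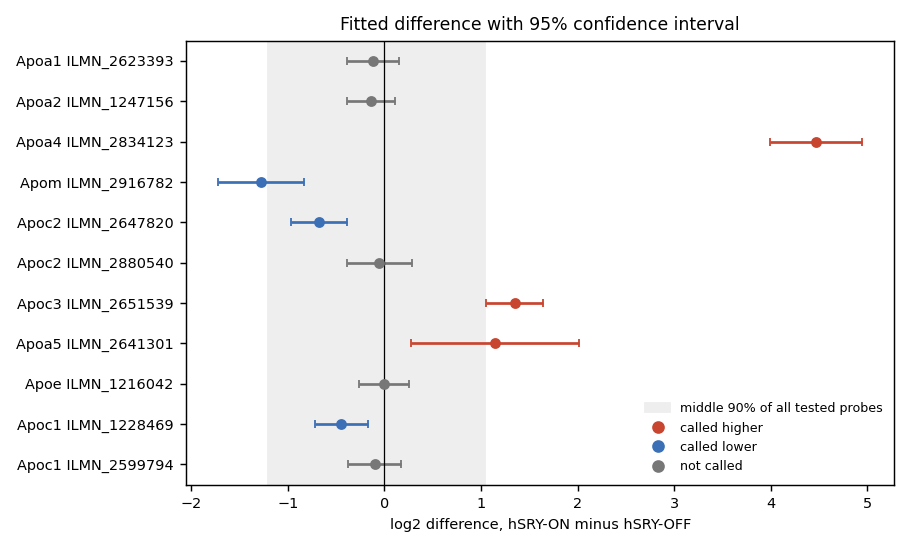
Log2 difference, hSRY-ON minus hSRY-OFF, of each apolipoprotein probe, with 95% confidence intervals from the fit; colours give the call and the grey band holds the middle 90% of all tested probes (-1.20 to 1.04). Apoa4 at 4.47 lies far outside the band, Apoc3, Apoa5 and Apom lie just outside it, and the other 7 probes lie inside it.

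The 5 brightest member probes, those of Apoa1, Apoa2, Apoe and Apoc1, had mean control intensities over 30000. They read 44.5% to 77.3% of the brightest probe on their array, whose maximum was 44365 to 47161. Among the 32 tested probes with a mean control intensity over 30000, the median size of the log2 difference was 0.09 and the largest 0.62, and 3 of them (9.38%) were called. The 32 include these 5 member probes, and the called ones include the Apoc1 probe ILMN_1228469. Among the 4822 probes between 500 and 15000 the median size was 0.33, the largest 7.26, and 35.4% were called. Differences at the top of the intensity range were smaller on these arrays than in the middle of it. Whether the scale is compressed there was not tested, and a missing call for Apoa1, Apoa2 or Apoe does not show that the level was the same. Levels of different probes are not comparable with each other, because each probe has its own efficiency.

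**Figure D3:**
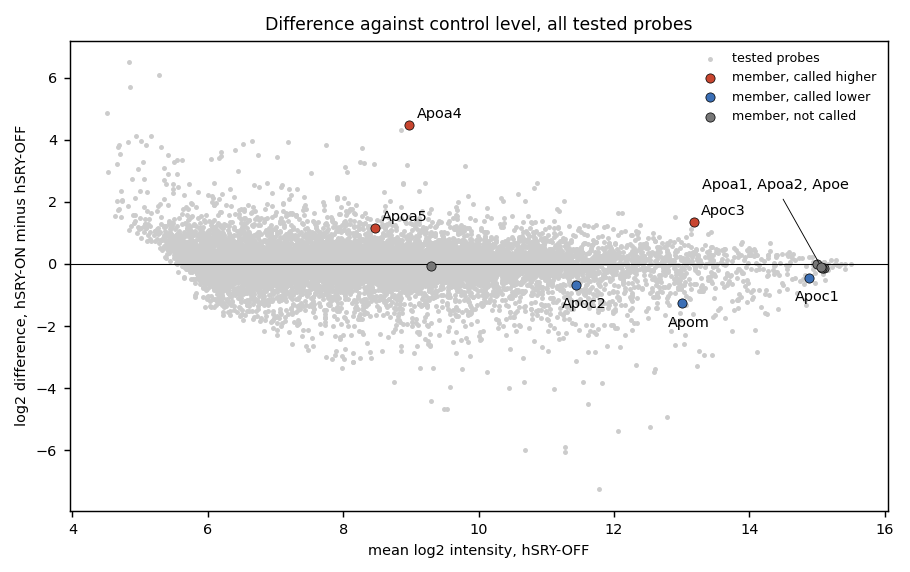
Log2 difference, hSRY-ON minus hSRY-OFF, against the mean log2 intensity in hSRY-OFF livers for all 10734 tested probes (grey), with the 11 apolipoprotein probes coloured by call. Apoa4, at a control level of 8.98, stands apart from most probes of its level, and 5 member probes crowd at the bright end where few probes moved.

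The chromosomal clusters were looked at next, because neighbouring apolipoprotein genes are known to share enhancers. In the chromosome 9 cluster the log2 differences, in order, were -0.12 for Apoa1, 1.35 for Apoc3, 4.47 for Apoa4 and 1.15 for Apoa5. Within each array the Apoa4 value was set against that of a neighbour, which cancels anything that scales a whole array. This difference grew by 4.59 log2 units against Apoa1, by 3.12 against Apoc3 and by 3.33 against Apoa5. No hSRY-ON value overlapped a control value in these 3 pairs. All 3 pairs share the Apoa4 probe, so they restate its large rise and are not 3 separate observations. The exact permutation test over arrays gave a two-sided p = 0.1 for each, the smallest that 3 against 3 arrays allow (adjusted p = 0.125 over 5 pairs). Of the nearest genes with a tested probe on the far side of Apoa5, Zpr1 was higher by 0.97 (adjusted p = 0.00345), Bud13 had a difference of 0.42 (adjusted p = 0.0553) and Cadm1 was lower, at -0.52 (adjusted p = 0.0365). On the side of Apoa1, Tagln was called higher but detected on 0 hSRY-OFF arrays, so its rise was at least 4.92-fold. Sidt2 was called with 1 of 3 probes, at 0.50, and Pcsk7 had a difference of 0.04 (adjusted p = 0.845). These genes were not equally near. Counted in kb from the cluster start, Zpr1 lies at 44.4, Bud13 at 54.3 and Cadm1 at 1301.5. Tagln, Sidt2 and Pcsk7 lie at -299.0, -290.8 and -322.2.

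The other cluster, on chromosome 7, holds Apoc2, Apoc4, Apoc1 and Apoe within 29732 bases (chr7:19671579-19701310, GRCm38.p6). Apoc4, a gene of the cluster outside the 10 studied, was 0.63 lower on the log2 scale in hSRY-ON livers, a difference of -0.63 ± 0.13 (SE; adjusted p = 0.0102). Against Apoc2 (ILMN_2647820) the Apoe value grew by 0.67 log2 units within arrays, without overlap between groups (exact permutation p = 0.1, adjusted p = 0.125). Against Apoc1 (ILMN_2599794) it grew by 0.09, with overlap (exact permutation p = 0.3). Both outcomes depended on the probe chosen for the gene: with the other Apoc2 probe (ILMN_2880540) the growth was 0.05 with overlap, and with the other Apoc1 probe (ILMN_1228469) it was 0.44 without overlap. Outside the cluster, all 3 probes of Nectin2 were higher by 0.48 to 0.75, Clasrp was higher by 0.56, and Relb, Clptm1, Tomm40 and Bcam were not called. Apoa2 (chromosome 1) and Apom (chromosome 17) lie apart from both clusters.

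**Figure D4:**
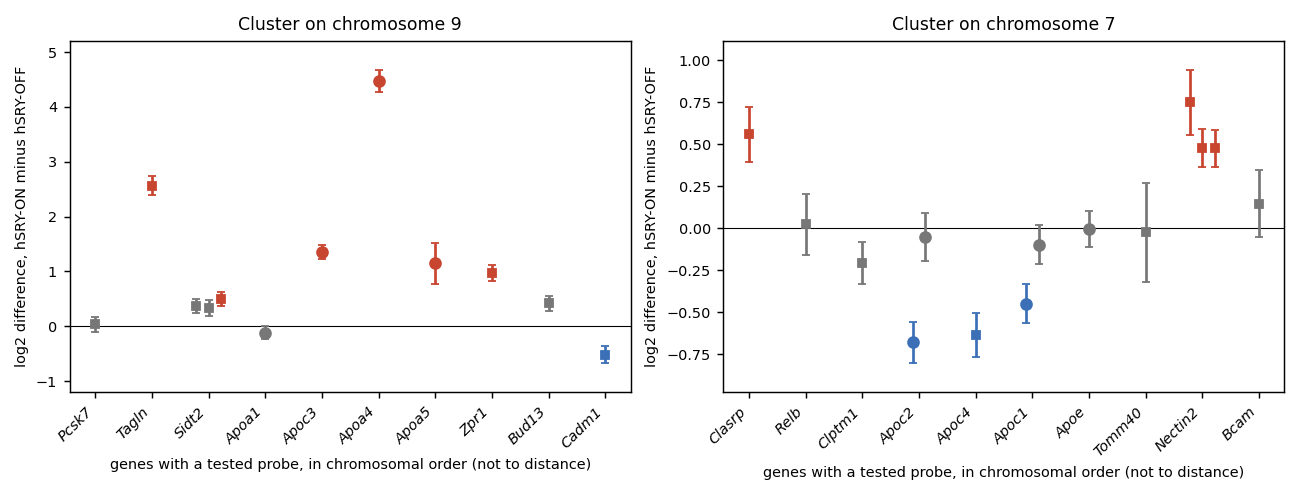
Log2 difference, hSRY-ON minus hSRY-OFF (error bars, SE), for the genes of the chromosome 9 and chromosome 7 clusters (circles) and the 3 nearest genes with a tested probe on each side (squares; also Apoc4 inside the second cluster), in chromosomal order without distances. Red marks probes called higher, blue called lower and grey not called; Apoa4 at 4.47 stands above Apoc3 at 1.35 and Apoa5 at 1.15, while Apoa1 lies at -0.12.

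The other genes of lipoprotein metabolism were taken as 5 lists, written from general knowledge, of which 78 probes for 64 genes were tested. They comprised 10 probes called higher and 35 called lower, together 57.7%, beside 33.1% of all tested probes. Their median log2 difference was -0.48. Among other apolipoproteins and lipoprotein-borne proteins, 5 of 7 tested probes were lower and 0 higher. The smallest p belonged to Saa4, a constitutive serum amyloid protein of high density lipoprotein. Saa4 read 682, 717 and 575 in hSRY-OFF and 210, 175 and 208 in hSRY-ON livers, and was detected on 2 of the 3 hSRY-ON arrays. Its log2 difference was -2.87 ± 0.23 (SE; adjusted p = 0.000267), and -1.71 without background correction, where it was still called.

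For assembly and secretion, 9 of 18 probes were lower and 0 higher. Soat2, which esterifies cholesterol for packing into particles, was 3.39-fold lower (log2 difference -1.76 ± 0.11, adjusted p = 0.000141). Mttp, which loads lipid onto apolipoprotein B, read 767, 752 and 571 in controls and 795, 856 and 530 in hSRY-ON livers. The groups overlapped for Mttp, with a difference of 0.08 ± 0.18 (interval -0.35 to 0.51; adjusted p = 0.760).

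Of the receptors and their helpers, 4 of 15 probes were higher and 7 lower. Vldlr, which binds triglyceride-rich particles, was called higher with 3 probes, by 1.56 to 1.66 log2 units, and 2 further Vldlr probes were detected on 0 arrays. Scarb1, the receptor for high density lipoprotein, had a difference of -0.55 ± 0.28 (adjusted p = 0.172).

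In the list of plasma enzymes, exchange and efflux, 1 of 13 probes was higher and 6 were lower. Angptl4, an inhibitor of lipoprotein lipase, was 3.40-fold higher (1.76 ± 0.15, adjusted p = 0.000335). Bmp1, a protease that trims the precursor of apolipoprotein A-I, was lower with all 4 of its probes, by differences of -1.55 to -0.98. Lcat, which esterifies cholesterol on high density lipoprotein, was not called with either probe (-0.42 and -0.41, adjusted p = 0.197 and 0.116). Abca1, the exporter that first lipidates apolipoprotein A-I, was detected on 0 arrays.

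Of the transcription factors known to act at apolipoprotein genes, 5 of 25 probes were higher and 8 lower. Mlxipl, the carbohydrate-responsive factor, was 3.25-fold lower (-1.70 ± 0.11, adjusted p = 0.000151). Esrra, a nuclear receptor of mitochondrial metabolism, was 2.13-fold higher (1.09 ± 0.15, adjusted p = 0.00198). Hnf4a, the nuclear receptor that binds the enhancer shared by Apoc3, Apoa4 and Apoa1, had overlapping groups (-0.09 ± 0.21, interval -0.58 to 0.40; adjusted p = 0.768). Creb3l3, a liver factor known to activate Apoa4, had a difference of -0.28 ± 0.12 (interval -0.57 to 0.01; adjusted p = 0.119).

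**Figure D5:**
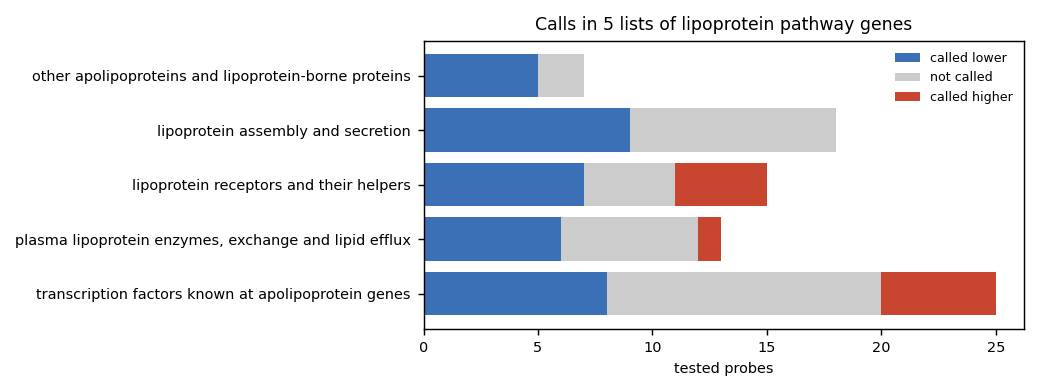
Number of tested probes called lower, not called and called higher in hSRY-ON livers in each of 5 lists of lipoprotein pathway genes. Lower calls outnumber higher ones in each list, from 5 against 0 among other apolipoproteins to 8 against 5 among transcription factors.

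The genes whose pattern was most like that of Apoa4 were searched over all tested probes, by the Euclidean distance between log2 values on the 6 arrays, each probe centred on its hSRY-OFF mean. The nearest was Gpx3, a secreted glutathione peroxidase, at a distance of 0.87 and with a rise of 4.33. Cpt1b, the muscle form of the enzyme that admits fatty acids to mitochondria, followed at 1.02, then Cybrd1, a ferric reductase, at 1.28, Pfkp, a phosphofructokinase, at 1.43, and Ldc1 at 1.44. Cpt1b, Cybrd1 and Ldc1 were detected on 0 hSRY-OFF arrays, so that their rises were at least 10.01-fold, 6.89-fold and 12.5-fold and their distances rest on control values that were not well above background. Without background correction they rose by 2.14, 1.82 and 2.61 log2 units, against 4.17 for Apoa4, 4.0 for Gpx3 and 3.11 for Pfkp. With background correction the rises of Cpt1b, Cybrd1 and Ldc1 were 4.13, 3.84 and 4.875, and that of Pfkp was 3.92. Gpx3 had the rise closest to that of Apoa4 in both settings. The distances were not recomputed without background correction. The distance uses the group difference itself, so closeness here is a description.

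The arrays were also read for markers of the cell types a liver sample could hold. Of the hepatocyte markers, 4 of 11 tested probes were lower and 0 higher in hSRY-ON livers. The share called was 36.4%, beside 33.1% of all tested probes (15.8% higher and 17.3% lower). It was 16.7% for erythroid, 25% for stellate, 41.7% for macrophage and 66.7% for endothelial probes. Sums given here add the deposited intensities of all probes of a list, before correction and normalization. The hepatocyte sum ranged from 209600 to 227000 in hSRY-OFF and from 182400 to 229800 in hSRY-ON livers. Most of it comes from the bright probes of Ahsg, Trf and Fga, near the top of the array's range. Falls of dimmer probes hardly enter it, so its overlap does not show that the hepatocyte content was the same. Of 10 enterocyte probes, 9 were detected on 0 arrays, among them those of Fabp2, Vil1, Sis, Cdx1 and Cdx2, while Lct, Alpi and Muc2 had no probe. A probe without detection does not show that its gene was silent, since the hepatocyte marker Tat was also detected on 0 arrays. The exception among the enterocyte probes, Krt20, had a difference of -2.26 (adjusted p = 0.00566). The summed intensity of the list went from 1585 to 1867 in hSRY-OFF and from 1421 to 1573 in hSRY-ON livers. With 9 of the 10 probes undetected, this sum is mostly background and cannot measure enterocyte content. The summed intensity of erythroid probes was higher in every hSRY-ON liver (81630 to 92810) than in any control (66720 to 80180). At 50% of all tested probes, too, the 3 values of a group all lay above the other 3. Hba-a1, the brightest probe on every array, makes up the largest part of the erythroid sum. Its normalized value was the same on every array. Only Alas2 among 6 tested erythroid probes was called (0.93, adjusted p = 0.0117), and 1 further probe was detected on 0 arrays. Endothelial probes were called higher in 4 of 6 cases (sums of 3290 to 4816 and 4469 to 6252). Macrophage probes were called lower in 4 and higher in 1 of 12 cases. Their sum was lower in every hSRY-ON liver (12900 to 13740) than in any control (13800 to 21510), by a narrow margin. Stellate probes were called in 1 of 8 cases in each direction (6046 to 7913 and 6596 to 6944). The 1 tested biliary probe was not called, and the biliary sum was close to background (479 to 612 and 514 to 543). The part of these cell types in the apolipoprotein differences was not tested, and in whole liver RNA fewer cells of a type and less RNA per cell cannot be told apart.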

How the data were processed

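Total RNA of 3 hSRY-ON and 3 hSRY-OFF livers was hybridized to single-colour Illumina MouseRef-8 v2.0 BeadChips. The methods describe biological triplicates, and the labels gave the groups. Each of the 25697 probes had a bead intensity that the authors had neither normalized nor background-subtracted and a deposited detection p-value on each array. The study names TCC, a package written for count data, and limma, a method for arrays, was used here instead. The submitters' notes also list limma, without a version. The software that made the deposited detection p-values is not given in the sources used here.

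Background was removed with limma 3.58.1 (R 4.3.3; nec, offset 16), then arrays were quantile-normalized and logged to base 2. The fit covered the 10734 probes that 3 or more of the 6 arrays detected (detection p under 0.01), with lmFit and eBayes without covariates, two-sided, Benjamini-Hochberg threshold 0.05. Log2 differences shrink for dim probes because of the offset. A probe detected on no array of a group has a bound, the brighter group's mean against the mean of, per array, the higher of the detection floor and the probe's own signal. Median array intensities were 146.9 to 164.7, and 40.2% to 41.9% of probes were detected. The number of arrays limits the precision. No 2 arrays were identical (0 pairs), and 0 columns lacked a sample. Of 18138 symbols, 14307 were current in RefSeq GRCm38.p6, 2927 matched through older names and 904 were not matched. The procedure was checked on simulated data.

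Named were all member probes; from each of 5 pathway lists the called probe with the smallest p in each direction; Mttp, Scarb1, Abca1, Lcat, Hnf4a and Creb3l3 whatever their values; the 5 probes nearest to Apoa4; and the 3 nearest genes with a tested probe on each side of a cluster. Some genes that this rule selects are not reported here. Krt20, Alas2, Tat, Ahsg, Trf, Fga, Hba-a1 and the enterocyte genes were named after their values were seen. The members, lists and tests were chosen with earlier results of these data known. Alternatives covered the background correction, offset, normalization, filter, variance model, array weights, replicate block, averaging of probes, threshold and leaving out each array; omitting both correction and normalization, and the other probe of Apoc1 and Apoc2 in the within-array comparisons, were added after seeing the data. The authors' own comparisons were not used.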

Additional observations from a re-analysis of the deposited data

How the results depend on the processing

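Apoa4, Apoc3 and Apom kept their direction and their calls in all 18 alternatives, with Apoa4 differences from 4.12 to 4.61. The number of apolipoprotein probes called higher was 2 or 3 in all 19 alternatives, and the number called lower was 2 or 3 except for 1 when probes of a gene were averaged. Leaving out 1 array at a time gave 2 to 3 calls in each direction, and 8 to 13 higher and 26 to 35 lower calls in the pathway lists. At an adjusted p under 0.01, 22 pathway probes were called lower in place of 35. With the other probe of the gene, the within-array growth of Apoe was 0.44 against Apoc1 and 0.0462 against Apoc2, in place of 0.09 and 0.67. Without background correction the Saa4 difference was -1.71 in place of -2.87. Differences near 0 had no stable sign without single arrays, ranging from -0.0422 to 0.0208 for Apoe, from -0.153 to 0.0138 for Apoc2 (ILMN_2880540), from -0.0919 to 0.26 for Mttp and from -0.28 to 0.13 for Hnf4a. The cause was not tested.

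The background share of 33.1% (3554 probes) itself fell to 20.2% (2166) without hSRY-OFF replicate 2, to 18.9% (2034) without hSRY-OFF replicate 1, to 17.8% (1912) without correction and normalization, to 13% (3335 of 25697) without a filter and to 15.5% (1665) at an adjusted p under 0.01. The same share rose to 37.8% (4060) without hSRY-ON replicate 3 and to 44.7% (4799) with array weights. Same-numbered arrays did not deviate together (correlations 0.02 to 0.10), so the numbers were not taken as pairs. With the replicate block the calls were 3210, the Apoc1 probe ILMN_1228469 was no longer called (-0.45, adjusted p = 0.0508), and the other apolipoprotein calls were kept. Probes not above background, such as those of Abca1, have no measured difference.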
